A study of Mus musculus with 36 samples.

Results

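Wnt signalling genes were followed by symbol through 3 kinds of mouse bone cell culture, with and without the microRNA gene Mir324. The family holds 45 genes out of 30205 measured: 11 Wnt ligands, 2 R-spondin agonists, 2 genes for Wnt secretion, 8 Frizzled receptors, 4 co-receptors, 10 secreted inhibitors, 3 feedback genes, 2 genes of the cytoplasmic relay and 3 nuclear factors. All 45 were found in the deposited tables. RNA was sequenced from 36 libraries, 6 in each of 6 groups set by genotype, wild-type control (WT) or Mir324-null (null), and by culture. The mice were 20 weeks old. Marrow cells grown out with M-CSF were kept for 5 days with M-CSF at 30 ng/mL (bone marrow macrophages, BMM) or with M-CSF at 30 ng/mL and RANK-L at 50 ng/mL (labelled osteoclasts, OC), so both kinds of marrow culture shared the growth factor. Osteoblasts (OB) grew out of collagenase-treated bone chips and were kept for 18 days with 2 mM β-glycerophosphate and 50 µg/mL ascorbic acid. The labels name no Cre driver or clone for the null mice, and do not say whether the libraries of a group came from separate mice. The p-values therefore measure the spread between these libraries, which may be technical.

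Wnt proteins are lipid-modified by Porcn and carried to the cell surface by Wls. On the receiving cell a Frizzled receptor with the co-receptor Lrp5 or Lrp6 binds the ligand, the Axin complex stops degrading β-catenin, and β-catenin enters the nucleus and acts with Tcf and Lef factors. Secreted inhibitors act by holding Wnt ligands (the Sfrp family, Frzb, Wif1) or by blocking the co-receptors (Dkk1, Sost). In bone, this pathway is known for driving bone formation by osteoblasts and for controlling how many osteoclasts form.

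Mir324 gives 2 mature microRNAs, which are printed here because their seeds (bases 2 to 8, in capitals) define the sites searched for in the Wnt genes. The sequences are from RefSeq (GRCm38.p6, plus strand), at chr11:70012060-70012082 for the 5p arm and chr11:70012095-70012114 for the 3p arm. Mir324 has no value among those used here, and the genotype labels therefore could not be compared with it.
miR-324-5p: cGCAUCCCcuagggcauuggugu
miR-324-3p: cCACUGCCccaggugcugcu

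The 7 bases that pair with the 3p seed, GGCAGTG on the transcript strand, were in the longest protein-coding 3′ UTR of 12 of the 45 Wnt genes (26.7%), against 12.78% of 20712 genes with a 3′ UTR in GENCODE M21 (GRCm38). The UTRs of the Wnt genes were longer, with a median of 1712 bases against 967 bases over all genes. The 12 genes were Wnt7b, Wnt10b, Fzd1, Fzd4, Fzd5, Fzd7, Lrp4, Lrp6, Dkk3, Sost, Nkd1 and Nkd2. The site of the 5p arm, GGGATGC, was in 3 of the 45 (6.7%), Fzd5, Fzd8 and Dkk1, against 7.45% of all genes. Matches were sought on the transcript strand only, the 2 motifs do not overlap in sequence, and a match is a description and not a shown binding site. The windows below are those of the site-bearing genes whose levels differed between genotypes, with the site in capitals.
Fzd1 (3p): tcctgtctggatttacGGCAGTGtgtcaaa
Fzd4 (3p): ataagatttcactggaGGCAGTGtggcctg
Fzd5 (3p): ggggctcggctcgcagGGCAGTGggttaag
Fzd5 (5p): tcacctctcaacccctGGGATGCttcacag
Fzd7 (3p): gatgaaaaaaggcaaaGGCAGTGgccgaaa
Lrp4 (3p): aatcatgtccattgctGGCAGTGgacattc
Lrp6 (3p): agtgcttgtgctgagtGGCAGTGgcctctt
Dkk3 (3p): cgctcccatgggctgaGGCAGTGgctacac
Nkd1 (3p): gacacacatggcagatGGCAGTGctgggtc
Nkd2 (3p): ccatttagttgggtgtGGCAGTGagagctt

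In capitals these sites lie at chr5:4754176-4754182 (Fzd1, minus strand), chr7:89409625-89409631 (Fzd4, plus), chr1:64734639-64734645 and chr1:64732143-64732149 (Fzd5, minus), chr1:59484888-59484894 (Fzd7, plus), chr2:91512353-91512359 (Lrp4, plus), chr6:134448664-134448670 (Lrp6, minus), chr7:112117802-112117808 (Dkk3, minus), chr8:88593940-88593946 (Nkd1, plus) and chr13:73818982-73818988 (Nkd2, minus), all in GRCm38. Genes with a 3p site moved in both directions in the null libraries. Of the 6 that could be tested in macrophages, 2 were higher in null (Fzd1 and Dkk3, the latter tested only through the null libraries) and 2 lower (Fzd7, Lrp6), where 27.0% of all genes tested were higher and 25.4% lower (edgeR, adjusted p under 0.05). In the RANK-L cultures 1 of 6 was higher (Fzd1) and 3 were lower (Fzd4, Fzd5, Lrp4), where 32.4% of all genes were higher and 33.1% lower. There Fzd1 was tested only through the null libraries and Fzd4 through the WT libraries. In osteoblasts 1 of 11 was higher (Nkd2) and 2 were lower (Fzd4, Nkd1), where 15.5% of all genes were higher and 16.9% lower. With so few genes these counts are a description.

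The libraries held 14118972 to 26347581 estimated counts, and replicates of 1 group varied by a biological coefficient of variation between 9.2% and 12.3% in WT and between 17.5% and 18.3% in null. The labelled cell types were checked against marker lists, given as the summed TPM (a level per transcript length, scaled to the same total in each library) of a list. The 8 osteoclast markers, such as Ctsk and Acp5, summed to between 31000.0 and 35340.0 TPM in WT OC but to 233.5 to 568.9 TPM in the libraries labelled null OC, where Calcr had a median of 0. In null BMM the list summed to 158.9 to 202.9 TPM, below every null OC library. Of the 8 markers, 6 were higher in null OC than in null BMM and 0 lower (edgeR, adjusted p under 0.05). Of all genes tested there, 6.78% were higher and 6.07% lower. The null RANK-L cultures thus had a small rise in these markers but lacked the marker level of their label, and are called by their treatment. Osteoblast cultures also held macrophage markers (1766 to 2114 TPM in WT, 1479 to 1697 TPM in null) and osteoclast markers (4090.0 to 5144 TPM in WT, 5339 to 8072 TPM in null). In bulk libraries, fewer cells of a type and less RNA per cell cannot be told apart.

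Most of the Wnt genes were read mainly in osteoblast cultures. A median of at least 1 TPM was reached by 33 of the 45 genes in WT OB and 38 in null OB, against 11, 9, 11 and 9 in WT BMM, null BMM, WT OC and null OC. In 39 of the 45 the highest median of the 6 groups was an osteoblast group. The exceptions were Wnt6, Wnt4, Axin1, Tcf7l2 and Dkk1, and Sost, which had no count in any of the 36 libraries. Summed over all 45 genes, the level was 712 to 840 TPM in WT OB and 812 to 976 TPM in null OB, with 127 to 206 TPM in WT BMM and WT OC. These counts and sums were made for the Wnt genes only, without the share over all genes. More genes of any kind passed the filter on low counts in osteoblasts (13607) than in macrophages (11925) or RANK-L cultures (12121).

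**Figure D1:**
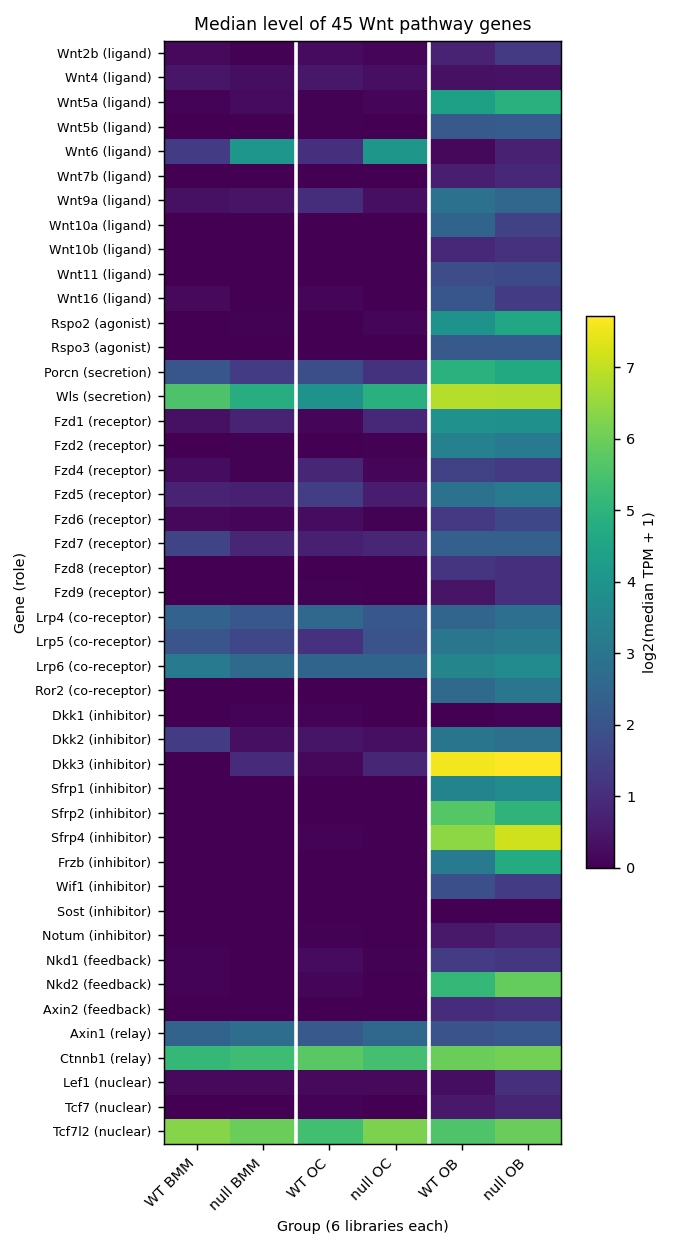
Median level of the 45 Wnt genes in the 6 groups, as log2(median TPM + 1), with genes in rows by role and groups in columns (6 libraries each). The secreted inhibitors are read almost only in the 2 osteoblast columns, Wnt6 is brightest in the 2 null marrow columns, and Wls, Ctnnb1 and Tcf7l2 are read in every column.

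WT osteoblasts were compared with the 2 WT marrow cultures to place each gene. Against WT BMM, 43 of the 45 were tested, 38 were higher in WT OB and 3 lower (edgeR quasi-likelihood test, Benjamini-Hochberg adjusted p under 0.05), where 76.8% of all genes tested were called in either direction, 41.5% higher and 35.3% lower. Against WT OC, 37 were higher and 1 lower, where 77.9% of all genes were called, 41.3% higher and 36.7% lower. Of the genes tested, 23 against WT BMM and 25 against WT OC reached the count filter in no library of that marrow group, 7 of the 8 inhibitors tested among them in both comparisons, so their direction was set by the filter and their counts are a description. Dkk3, a secreted Dickkopf family protein, had the highest level of the family, at 158, 188 and 214 TPM (lowest, median and highest of 6 libraries) in WT OB and at most 0.238 TPM in the WT marrow cultures. Sfrp4, which binds Wnt ligands outside the cell, lay at 54.3, 84.0 and 145 TPM in WT OB and at 53.7, 142 and 185 TPM in null OB. Sfrp1, another ligand-binding inhibitor, lay at 7.29, 10.1 and 11.7 TPM in WT OB and 9.96, 12.3 and 13.7 TPM in null OB. Both overlapped between genotypes, and neither passed the genotype test in OB (Sfrp4 0.35 ± 0.32, adjusted p = 0.441; Sfrp1 0.09 ± 0.12, adjusted p = 0.592; log2 fold changes ± SE). Frzb, a further ligand-binding inhibitor, had no count in any BMM or OC library, and WT OB was at least 92.2-fold higher in CPM (counts scaled to library size) than WT BMM when 3 counts per library are taken as the floor.

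The cytoplasmic relay gene Ctnnb1 and the nuclear factor gene Tcf7l2 were read in every culture. Ctnnb1, which encodes β-catenin, lay at 29.8, 34.0 and 43.0 TPM in WT BMM, 49.7, 52.0 and 57.7 TPM in WT OC and 38.4, 62.3 and 66.1 TPM in WT OB. Tcf7l2, a DNA-binding partner of β-catenin, lay at 68.3, 78.2 and 95.9 TPM in WT BMM, 37.5, 40.8 and 48.1 TPM in WT OC and 40.5, 46.7 and 50.9 TPM in WT OB. These sums include retained-intron transcripts. Tcf7l2-206 and Tcf7l2-204, both of that type, had medians of 25.8 and 13.5 TPM in WT BMM. Their medians were 15.7 and 4.88 TPM in WT OC and 11.3 and 12.1 TPM in WT OB. The Tcf7l2 levels in all groups are therefore not those of protein-coding transcripts alone. Of the 3 nuclear factors among the 45 genes, Tcf7l2 had the highest level in all 3 cultures. Lef1 and Tcf7, the others among these, stayed under 1 TPM in each WT library. Axin1, the scaffold of the β-catenin destruction complex, was higher in WT BMM than in WT OB (log2 fold change OB over BMM -0.55 ± 0.14, adjusted p = 0.000595, edgeR).

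In macrophages, the question was how the Wnt genes differed between genotypes without RANK-L. Of the 45, 16 passed the filter on low counts, 4 were higher in null BMM and 6 lower, where 52.3% of all 11925 genes tested were called, 27.0% higher and 25.4% lower. The median log2 fold change of the 16 was -0.23, and that of all genes 0.02. Wnt6, Fzd1, Dkk3 and Ctnnb1 rose. Porcn, Wls, Fzd7, Lrp5, Lrp6 and Dkk2 fell.

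Wnt6 was the ligand gene with a called difference in macrophages. Its level was 1.17, 1.54 and 1.68 TPM in WT BMM and 10.3, 15.4 and 17.9 TPM in null BMM. Every null library lay above every WT library, by 11.9-fold in mean CPM (log2 fold change 3.57 ± 0.16, adjusted p = 2.39e-11, edgeR). The protein-coding transcript Wnt6-201 made up 9.59 TPM of the null BMM level (median), against 0.748 TPM in WT BMM, and a retained-intron transcript, Wnt6-202, 4.88 and 0.662 TPM. Wnt10a, the neighbouring ligand gene 6193 bases downstream on the same strand, had a median of 0 in all 4 marrow groups. Wnt16, another ligand, had too few counts to be tested, with 32 counts over the 6 WT BMM libraries and 2 over the 6 null BMM libraries, and 21 and 0 in WT OC and null OC, and its groups did not overlap in either culture. In osteoblasts, Wnt6 was at 0.0824, 0.126 and 0.398 TPM in WT and 0.187, 0.620 and 0.940 TPM in null, below every null BMM library.

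The genes for making and exporting ligands fell in null BMM. Porcn, the acyltransferase that lipid-modifies Wnt proteins, was at 2.04, 3.14 and 4.41 TPM in WT BMM and 0.655, 1.55 and 2.62 TPM in null BMM, with overlapping groups (log2 fold change -1.10 ± 0.26, adjusted p = 0.00244, edgeR). Wls, the carrier that takes Wnt proteins to the surface, was at 42.0, 46.5 and 48.9 TPM in WT BMM and 25.7, 27.1 and 29.2 TPM in null BMM. Its groups did not overlap (log2 fold change -0.60 ± 0.07, adjusted p = 3.18e-06).

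Receptors moved both ways. Fzd1, a Frizzled receptor, was at 0.126, 0.276 and 0.349 TPM in WT BMM and 0.321, 0.688 and 2.12 TPM in null BMM, which overlapped slightly, with 1 null library well above the other five (log2 fold change 1.91 ± 0.41, adjusted p = 0.000967, edgeR). Fzd7, another Frizzled receptor, was at 1.69, 1.97 and 2.75 TPM in WT BMM and 0.301, 0.791 and 1.35 TPM in null BMM, without overlap (log2 fold change -1.11 ± 0.28, adjusted p = 0.00312). Fzd5, the other Frizzled tested, was called in neither direction (adjusted p = 0.995).

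Of the co-receptors that pair with Frizzled proteins, Lrp6 fell from 6.63, 8.24 and 9.84 TPM in WT BMM to 4.32, 5.38 and 6.39 TPM in null BMM (log2 fold change -0.39 ± 0.11, adjusted p = 0.00844, edgeR), apart in TPM and overlapping in CPM. Lrp5 was at 2.52, 3.12 and 3.97 TPM in WT BMM and 1.29, 2.13 and 3.15 TPM in null BMM, with broad overlap (-0.44 ± 0.17, adjusted p = 0.036). The Lrp5 call was lost, at adjusted p between 0.0639 and 0.079, on leaving out WT BMM replicate 2, 4 or 6 or null BMM replicate 2, 3 or 4. With an offset that models GC content and transcript length neither gene passed (adjusted p = 0.0517 for Lrp6 and 0.0602 for Lrp5, edgeR). Lrp4, a co-receptor-like protein that binds sclerostin, was at 3.35, 4.42 and 4.86 TPM in WT BMM and 2.92, 3.29 and 3.46 TPM in null BMM and was not called (-0.22 ± 0.10, adjusted p = 0.0672).

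Among inhibitors, Dkk2, a Dickkopf protein that binds Lrp5 and Lrp6, was at 0.799, 1.52 and 2.13 TPM in WT BMM and 0.210, 0.254 and 0.354 TPM in null BMM. All 6 null libraries lay below all 6 WT libraries (log2 fold change -2.24 ± 0.28, adjusted p = 5.06e-06, edgeR). Dkk3 had 5 counts in all over the 6 WT BMM libraries (at most 0.0593 TPM) and lay at 0.559, 0.926 and 1.64 TPM in null BMM (log2 fold change 5.57 ± 0.54, adjusted p = 3.47e-07). It passed the count filter only through the null libraries, and its null BMM mean was 0.472% of its null OB mean. Fzd1 in null BMM stood at 6.76% of its null OB mean.

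Markers of other cells moved in the same libraries. The summed stromal fibroblast list (8 genes) was 0.228 to 1.09 TPM in WT BMM and 1.82 to 4.81 TPM in null BMM, with Pdgfra at a median of 0 in both, and the summed smooth muscle list (3 genes) 2.20 to 3.61 TPM and 17.3 to 20.9 TPM. The osteoblast list (7 genes) summed to 2.69 to 7.38 TPM in WT BMM and 11.9 to 30.7 TPM in null BMM, where Sp7 and Bglap had a median of 0. The mean of Dcn, a stromal marker, was 0.0787% of its null OB level in null BMM, and that of Col1a1 0.0792%. Other markers of these lists stood higher, such as Acta2 of the smooth muscle list at 1.3% and Lepr of the stromal list at 2.58%. In WT BMM Lepr was at 8.62% of its WT OB mean. Neutrophil markers (6 genes) summed to 0.741 to 2.11 TPM in WT BMM and 43.1 to 105 TPM in null BMM, nearly all of it S100a8, with Ly6g, Ltf, Elane and Mpo at a median of 0. The part of these cells in the differences of Fzd1 and Dkk3 was not tested. For Wnt6, the null BMM mean was 2357% of the null OB mean.

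**Figure D2:**
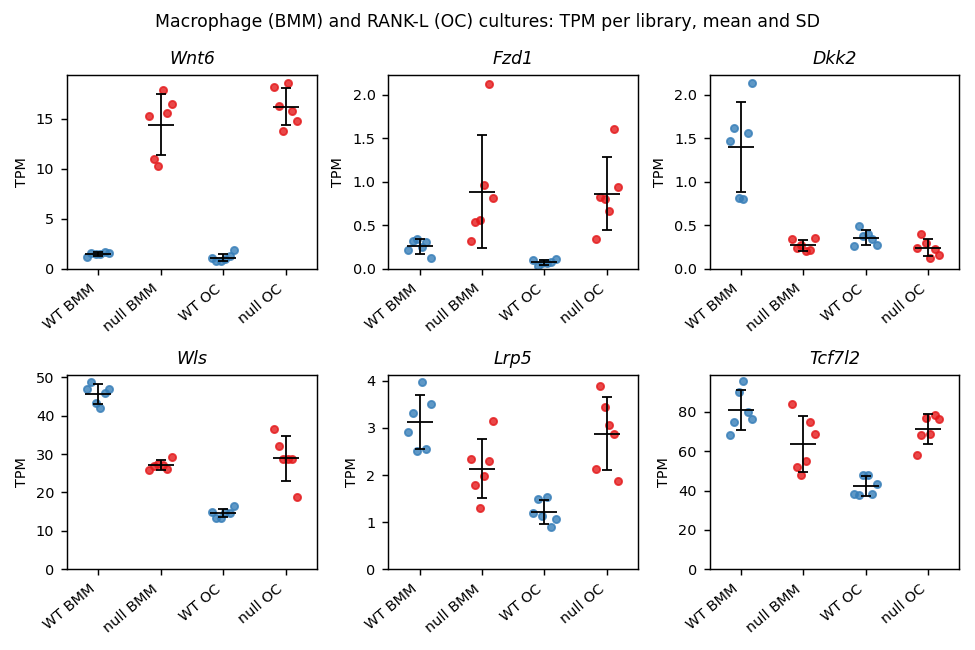
Level in TPM of 6 Wnt genes in each library of the WT (blue) and null (red) macrophage and RANK-L cultures, with 6 points a group and the mean and SD in black. Wnt6 stands at 10.3 TPM or more in every null library and at 1.88 TPM or less in every WT library, and Wls, Lrp5 and Tcf7l2 are lower in WT OC than in WT BMM.

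In the RANK-L cultures 16 genes were tested, 6 were higher in null and 6 lower, where 65.6% of all 12121 genes tested were called, 32.4% higher and 33.1% lower. The median log2 fold change of the 16 was -0.03, as was that of all genes. The higher genes were Wnt6, Wls, Fzd1, Lrp5, Axin1 and Tcf7l2. The lower ones were Wnt9a, Porcn, Fzd4, Fzd5, Lrp4 and Ctnnb1. In the libraries labelled null OC, osteoclast markers were above null BMM but far below WT OC. These differences therefore set RANK-L cultures with high osteoclast markers against cultures with low ones.

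Wnt6 was at 0.803, 1.05 and 1.88 TPM in WT OC and 13.8, 16.04 and 18.5 TPM in null OC, again without overlap (19.6-fold in mean CPM, log2 fold change 4.29 ± 0.17, adjusted p = 1.37e-12, edgeR). Wnt9a, another ligand, was at 0.418, 1.01 and 1.20 TPM in WT OC and 0, 0.256 and 0.596 TPM in null OC, with overlap (-1.54 ± 0.54, adjusted p = 0.0198). Wls differed from its macrophage pattern. It was at 13.4, 14.7 and 16.5 TPM in WT OC and 18.7, 28.8 and 36.5 TPM in null OC, so that every null library was higher (log2 fold change 1.19 ± 0.11, adjusted p = 8.43e-08). Porcn was at 2.38, 2.64 and 3.23 TPM in WT OC and 0.582, 1.20 and 2.22 TPM in null OC (-0.89 ± 0.28, adjusted p = 0.00991), apart in TPM and overlapping in CPM.

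In this culture 3 Frizzled genes were called and went in different directions. Fzd1 was at 0.0365, 0.0730 and 0.114 TPM in WT OC and 0.349, 0.812 and 1.61 TPM in null OC, apart in all libraries (log2 fold change 3.62 ± 0.38, adjusted p = 3.04e-07, edgeR). It had 24 counts over the 6 WT OC libraries and passed the count filter only through null OC. Fzd4 was at 0.635, 0.775 and 1.19 TPM in WT OC and 0, 0.0766 and 0.346 TPM in null OC (-2.57 ± 0.52, adjusted p = 0.000357). It had 38 counts over the 6 null OC libraries and passed the count filter through WT OC, so its direction is a description. Fzd5 was at 1.32, 1.64 and 2.08 TPM in WT OC and 0.294, 0.521 and 0.908 TPM in null OC (-1.37 ± 0.22, adjusted p = 4.51e-05). For both, all 6 null libraries lay below all 6 WT libraries. Fzd7 was not called (adjusted p = 0.15).

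Lrp5 was at 0.894, 1.16 and 1.54 TPM in WT OC and 1.88, 2.96 and 3.89 TPM in null OC, without overlap (log2 fold change 1.28 ± 0.17, adjusted p = 3.67e-06, edgeR). Lrp4 was at 4.57, 4.91 and 5.65 TPM in WT OC and 3.10, 3.29 and 4.12 TPM in null OC (-0.29 ± 0.10, adjusted p = 0.0136), apart in TPM and overlapping in CPM. Lrp6 was not called (adjusted p = 0.324), although offsets for transcript length or for GC content and length called it higher in null (log2 fold change 0.26 and 0.33). Dkk2, the single inhibitor tested here, was not called (-0.38 ± 0.32, adjusted p = 0.298). Dkk3 had too few counts to be tested and was at 0.0458, 0.125 and 0.238 TPM in WT OC and 0.148, 0.785 and 2.14 TPM in null OC, with overlapping groups.

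Downstream of the receptors, Tcf7l2 was at 37.5, 40.8 and 48.1 TPM in WT OC and 58.3, 72.7 and 78.2 TPM in null OC, with every null library higher (log2 fold change 1.04 ± 0.09, adjusted p = 1.4e-08, edgeR). Axin1 was at 3.03, 3.45 and 4.01 TPM in WT OC and 3.27, 4.90 and 11.2 TPM in null OC, with overlap (0.71 ± 0.16, adjusted p = 0.000924). Ctnnb1 had the smallest called difference, from 49.7, 52.0 and 57.7 TPM in WT OC to 35.4, 42.5 and 46.2 TPM in null OC (-0.17 ± 0.07, adjusted p = 0.0317), and its groups were apart in TPM but overlapped in CPM. That call was lost in a fit over all 36 libraries (adjusted p = 0.151), under the length offset (0.0699) and, at adjusted p between 0.06 and 0.0819, on leaving out WT OC replicate 2 or 6 or null OC replicate 1, 5 or 6. In null BMM Ctnnb1 had been higher than in WT, at 34.0, 39.0 and 44.6 TPM against 29.8, 34.0 and 43.0 TPM (0.36 ± 0.10, adjusted p = 0.00765). Ctnnb1 overlaps Ulk4 on the other strand, and since the counting is not stated to use strand, its values are uncertain to that extent.

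Marker lists also differed between these groups. The stromal fibroblast list summed to 0.340 to 0.801 TPM in WT OC and 2.94 to 18.1 TPM in null OC, and the neutrophil list to 0.0341 to 2.06 TPM and 40.2 to 54.2 TPM. Macrophage markers (7 genes) summed to 4363 to 5373 TPM in WT OC and 5546 to 6929 TPM in null OC. Their part in the Wnt gene differences was not tested. Fzd1 in null OC was at 6.58% of its null OB mean, where Dcn was at 0.171%, Col1a1 at 0.105%, Acta2 at 1.38% and Lepr at 0.492%. In WT OC Lepr was at 6.51% of its WT OB mean.

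The change from macrophage to RANK-L culture was then set out by genotype. In WT, 18 Wnt genes were tested, 5 were higher in OC and 9 lower, where 60.5% of all 12661 genes tested were called, 30.4% higher and 30.1% lower. In null, none of the 18 was called by edgeR, where 12.9% of all genes were called, 6.78% higher and 6.07% lower. At an unadjusted p under 0.05, 2 of the 18 passed in null, Lrp5 (0.48 ± 0.17, adjusted p = 0.0551) and Lrp6 (-0.31 ± 0.11, adjusted p = 0.0613), and DESeq2 called these 2. Leaving out 1 library gave 1 to 3 calls in null for 6 libraries: WT BMM replicate 3 (1 call), null BMM replicates 1 (3), 5 (2) and 6 (1) and null OC replicates 1 (1) and 6 (2).

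The difference between the genotypes was tested as an interaction and called 11 of the 18, 8 higher and 3 lower in null than in WT, where 51.3% of all genes were called, 25.3% higher and 26.1% lower. The WT and null changes and the genotype comparisons share libraries, so these results are not independent of each other. Wls had the largest interaction relative to its error. It fell in WT from a median of 46.5 to 14.7 TPM (log2 fold change -1.76 ± 0.10, adjusted p = 4.74e-15, edgeR), was at medians of 27.1 and 28.8 TPM in null (0.04 ± 0.10), and had an interaction of 1.80 ± 0.14 (adjusted p = 8.17e-12).

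Dkk2, Lrp5, Tcf7l2, Fzd7 and Fzd1 followed the same order, each lower in WT OC than in WT BMM and with a positive interaction. Lrp5 fell in WT (-1.25 ± 0.17, adjusted p = 3.69e-07, edgeR), with an interaction of 1.73 ± 0.24 (adjusted p = 7.06e-07). Tcf7l2 fell in WT (-1.08 ± 0.12, adjusted p = 8.89e-09), with an interaction of 1.30 ± 0.17 (adjusted p = 2.27e-07). Dkk2 fell in WT (-2.07 ± 0.28, adjusted p = 2.42e-07), with an interaction of 1.87 ± 0.41 (adjusted p = 0.000436), and the levels of its null BMM libraries overlapped those of WT OC. Fzd7 and Fzd1 had interactions of 1.76 ± 0.49 and 1.73 ± 0.59 (adjusted p = 0.00372 and 0.0157). Lrp6 and Wnt6 had smaller ones, 0.52 ± 0.15 and 0.73 ± 0.23 (adjusted p = 0.00651 and 0.0104).

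Fzd5, Ctnnb1 and Dkk3 rose in WT and had a negative interaction. Fzd5 went from a median of 0.701 to 1.64 TPM in WT (1.17 ± 0.26, adjusted p = 0.0003, edgeR) and from 0.615 to 0.521 TPM in null, with an interaction of -1.35 ± 0.37 (adjusted p = 0.00343). The interaction was -0.53 ± 0.12 for Ctnnb1 (adjusted p = 0.000923) and -2.42 ± 0.94 for Dkk3 (adjusted p = 0.0329), and Dkk3 rests on few counts in WT. Wnt9a and Fzd4 rose in WT (1.45 ± 0.54, adjusted p = 0.0217, and 1.95 ± 0.61, adjusted p = 0.00707), but their interactions did not pass (adjusted p = 0.076 and 0.0991). Axin1 fell in WT (-0.38 ± 0.15, adjusted p = 0.0325) and also had no called interaction (adjusted p = 0.0735).

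**Figure D3:**
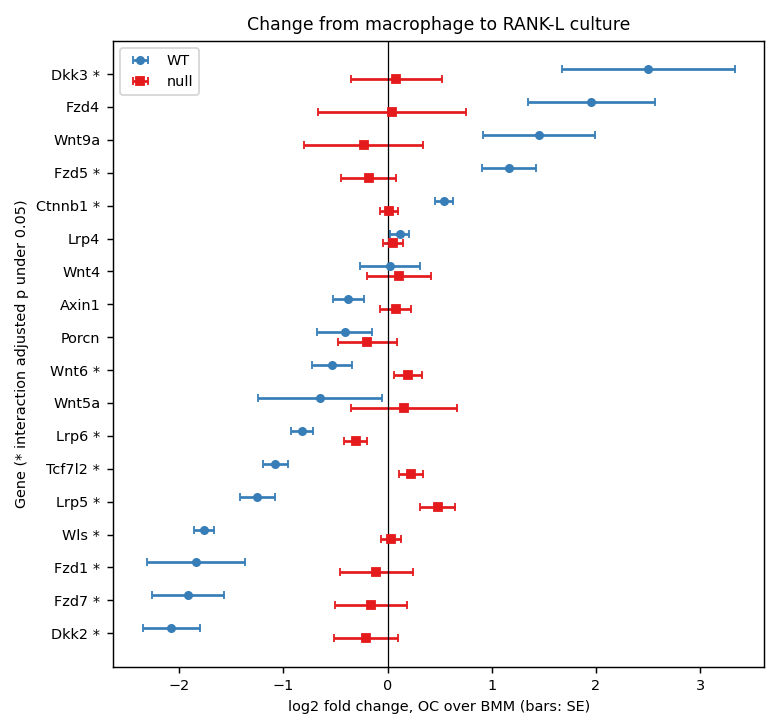
Log2 fold change from macrophage (BMM) to RANK-L (OC) culture of the 18 Wnt genes tested, in WT (blue circles) and null (red squares), with SE bars and genes ordered by the WT change. The WT values run from -2.07 for Dkk2 to 2.502 for Dkk3, the null values stay between -0.31 and 0.48, and a star marks the 11 genes with a called interaction.

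In osteoblast cultures, of the 42 Wnt genes tested, 7 were higher in null OB and 6 lower, where 32.5% of all 13607 genes tested were called, 15.5% higher and 16.9% lower. The median log2 fold change of the 42 was 0.08, and that of all genes 0.002. Wnt2b, Wnt5a, Rspo2, Frzb, Nkd2, Lef1 and Tcf7l2 rose. Wnt9a, Wnt16, Fzd2, Fzd4, Sfrp2 and Nkd1 fell. Markers of several cell types differed between the same libraries. The 7 osteoblast markers summed to 20630.0 to 29680.0 TPM in WT OB and 36070.0 to 49560.0 TPM in null OB, with 4 of 7 higher in null and none lower (edgeR). Of 7 macrophage markers 4 were lower and none higher, of 8 osteoclast markers 3 were higher and none lower, and of 8 stromal fibroblast markers 4 were higher and 1 lower, and the summed osteoclast and macrophage lists did not overlap between genotypes either. The part of these cells in the Wnt gene differences was not tested. Transcript length moved with the difference over all genes (Spearman 0.549 across 13607 genes, which are not independent replicates), and an offset for GC content and length left 4 higher calls. In a fit over all 36 libraries 2 lower calls passed, and leaving out WT OB replicate 5 gave 4 higher calls.

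Frzb rose in null osteoblasts. Its level was 3.96, 8.03 and 9.61 TPM in WT OB and 13.8, 25.6 and 31.4 TPM in null OB, with every null library above every WT library (2.67-fold in mean CPM, log2 fold change 1.41 ± 0.22, adjusted p = 0.000533, edgeR). The call was kept under each alternative and with each library left out. Frzb is also known from cartilage, and the 4 chondrocyte markers were all higher in null OB (Acan, Col2a1, Sox9 and Comp, with log2 fold changes from 0.74 to 2.37). Their sum was 170.0 to 393 TPM in WT OB and 475 to 1111 TPM in null OB. The part of such cells in the Frzb difference was not tested.

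The Frzb promoter, 250 bases before to 50 bases after its start, is printed because it holds 1 match to CTTTGA or its reverse complement TCAAAG, the core of sites bound by Tcf and Lef factors, searched on both strands (RefSeq, GRCm38.p6, chr2:80447347-80447646, minus strand). The match is in capitals.
Frzb: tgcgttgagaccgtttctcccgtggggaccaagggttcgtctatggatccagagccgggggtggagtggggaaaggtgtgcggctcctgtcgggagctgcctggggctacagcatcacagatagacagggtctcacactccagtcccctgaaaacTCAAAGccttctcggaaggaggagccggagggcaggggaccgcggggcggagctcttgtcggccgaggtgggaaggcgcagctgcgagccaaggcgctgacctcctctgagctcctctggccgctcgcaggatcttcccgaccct

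This core was in 16% of 32851 promoters of the same length and in 6 of the 37 promoters listed for 28 of the Wnt genes (Dkk1, Frzb, Fzd1, Lef1, Wnt11 and Wnt5b).

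Other inhibitors differed or did not. Sfrp2, a secreted ligand-binding protein, was at 41.4, 50.6 and 73.0 TPM in WT OB and 24.6, 31.0 and 45.8 TPM in null OB, with slight overlap in TPM (log2 fold change -0.84 ± 0.17, adjusted p = 0.00268, edgeR). Dkk2 was at 6.05, 6.92 and 13.2 TPM in WT OB and 5.19, 6.14 and 10.04 TPM in null OB and was not called (-0.50 ± 0.24, adjusted p = 0.142). Dkk3 was at 172, 208 and 221 TPM in null OB, overlapping WT OB, with a log2 fold change of -0.05 ± 0.07 (adjusted p = 0.633). Wif1, which holds Wnt ligands, and Notum, an enzyme that removes their lipid, had medians of 2.67 and 0.453 TPM in WT OB and were not called. Sost, the osteocyte product sclerostin, had no count, and Dkk1 reached at most 0.209 TPM in any library.

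Of the 3 feedback genes, which Wnt signalling turns on and which act back on the pathway, Nkd2 and Nkd1 were called, in opposite directions. Nkd2, which binds Dishevelled, was at 26.6, 34.0 and 49.0 TPM in WT OB and 52.2, 58.1 and 63.9 TPM in null OB, without overlap in TPM (log2 fold change 0.57 ± 0.13, adjusted p = 0.00377, edgeR). The Nkd2 call was kept under each alternative and with each library left out, but Nkd2 overlaps Gm8062 on the other strand. Nkd1, its relative, was at 1.10, 1.52 and 2.43 TPM in WT OB and 1.03, 1.31 and 1.37 TPM in null OB, with overlap (-0.56 ± 0.18, adjusted p = 0.0274). It was lost, at adjusted p between 0.0523 and 0.0685, on leaving out WT OB replicate 2 or 6 or null OB replicate 2 or 3, and in a fit over all 36 libraries (0.0715). Axin2, a widely used readout of β-catenin activity, was at 0.715, 0.958 and 1.30 TPM in WT OB and 0.5999, 1.15 and 1.92 TPM in null OB and was not called (0.09 ± 0.24, adjusted p = 0.824).

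Among nuclear factors, Lef1 was at 0.145, 0.213 and 0.844 TPM in WT OB and 0.632, 1.12 and 1.53 TPM in null OB, overlapping through WT OB replicate 1 (log2 fold change 1.41 ± 0.39, adjusted p = 0.0128, edgeR). Its call was kept under each alternative and with each library left out, at medians of 0.213 TPM in WT OB and 1.12 TPM in null OB. Lef1 had 6 to 43 counts per WT OB library and 29 to 75 per null OB library. It passed the count filter through null OB, so the direction of its call is a description. Tcf7l2 was at 40.5, 46.7 and 50.9 TPM in WT OB and 44.5, 61.2 and 66.8 TPM in null OB, with overlap (0.27 ± 0.09, adjusted p = 0.0236), and was lost at adjusted p between 0.0536 and 0.0575 without WT OB replicate 4 or 5 or null OB replicate 3. With the offset for length its adjusted p was 0.101, and over all 36 libraries 0.0586. Ctnnb1 and Axin1 were not called (adjusted p = 0.891 and 0.704).

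Of the ligands, Wnt5a, a non-canonical Wnt, had the highest level in osteoblasts, at 16.5, 19.9 and 21.6 TPM in WT OB and 18.2, 28.6 and 34.1 TPM in null OB, with overlap (log2 fold change 0.36 ± 0.12, adjusted p = 0.028, edgeR). The Wnt5a call was lost under the length offset (adjusted p = 0.0649), with that for GC content and length (0.283), in a fit over all 36 libraries (0.123) and on leaving out WT OB replicate 2, 5 or 6 or null OB replicate 5 (adjusted p between 0.0531 and 0.0637). Wnt2b, a canonical ligand, was at 0.343, 0.701 and 0.943 TPM in WT OB and 0.598, 1.46 and 2.33 TPM in null OB (0.92 ± 0.28, adjusted p = 0.0213), and was lost without null OB replicate 3 (adjusted p = 0.0538).

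Wnt16, a ligand known for its link to cortical bone, was at 1.91, 3.21 and 5.45 TPM in WT OB and 1.14, 1.61 and 2.15 TPM in null OB, with overlap (log2 fold change -0.81 ± 0.27, adjusted p = 0.0337, edgeR). Leaving out WT OB replicate 3, 4, 5 or 6 or null OB replicate 1, 4, 5 or 6 ended that call (adjusted p between 0.0516 and 0.0952). Wnt9a was at 5.27, 6.49 and 9.23 TPM in WT OB and 3.02, 4.86 and 7.08 TPM in null OB (-0.59 ± 0.20, adjusted p = 0.0352), and was lost, at adjusted p between 0.063 and 0.0799, without WT OB replicate 1, 2 or 4 or null OB replicate 1, 2 or 3. These called ligands thus went in both directions, each with overlapping groups. With the offset for GC content and length Wnt16 and Wnt2b did not pass (adjusted p = 0.138 and 0.0648), and in the fit over all 36 libraries Wnt9a and Wnt2b did not (0.19 and 0.0599).

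The agonist Rspo2, an R-spondin that keeps Frizzled receptors at the surface, was at 8.596, 14.1 and 17.8 TPM in WT OB and 15.5, 22.9 and 36.6 TPM in null OB, with overlap (log2 fold change 0.64 ± 0.21, adjusted p = 0.0388, edgeR). That call was lost, at adjusted p between 0.059 and 0.0778, on leaving out WT OB replicate 1, 5 or 6 or null OB replicate 1, 2 or 6. It was also lost with no filter on low counts (0.0721) and with the offset for GC content and length (0.113). Of the secretion genes, Wls was at 96.3, 114 and 118 TPM in WT OB and 105, 113 and 136 TPM in null OB. Porcn was at 26.8, 29.2 and 32.2 TPM in WT OB and 13.5, 24.8 and 40.5 TPM in null OB. Both overlapped between genotypes, and neither was called (adjusted p = 0.196 and 0.378).

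All 8 Frizzled genes were tested in osteoblasts and 2 were called, both lower in null. Fzd2 was at 8.38, 9.43 and 10.8 TPM in WT OB and 7.69, 8.28 and 10.1 TPM in null OB, with overlap (log2 fold change -0.33 ± 0.09, adjusted p = 0.0106, edgeR). Fzd4 was at 1.42, 1.78 and 2.505 TPM in WT OB and 1.19, 1.46 and 1.56 TPM in null OB (-0.55 ± 0.16, adjusted p = 0.0153), overlapping in TPM and apart in CPM. Neither passed in a fit over all 36 libraries (adjusted p = 0.195 and 0.359). Fzd1 was the Frizzled with the highest level in osteoblasts, at 7.78, 13.9 and 16.8 TPM in WT OB and 9.56, 13.5 and 18.5 TPM in null OB, and was not called (adjusted p = 0.5). Fzd5 and Fzd7 had medians of 6.47 and 4.14 TPM in WT OB and were not called either (adjusted p = 0.179 and 0.619).

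None of the 4 co-receptors was called in osteoblasts by edgeR (adjusted p = 0.0655 for Lrp4, 0.642 for Lrp5, 0.77 for Lrp6 and 0.892 for Ror2). Lrp6 was at 8.26, 10.3 and 13.6 TPM in WT OB and 10.3, 12.2 and 12.6 TPM in null OB. Lrp4 was at 4.12, 4.72 and 4.98 TPM and 5.38, 6.08 and 7.03 TPM, apart between genotypes in TPM, and DESeq2 and the offset for length called it higher in null. That offset follows the length within a gene across libraries, and not the trend across genes. Over the alternatives the log2 fold change of Lrp4 ran from -0.162 to 0.223, so its sign was not kept. Ror2, a receptor for Wnt5a, was at 2.51, 5.38 and 6.50 TPM and 2.499, 7.23 and 8.83 TPM and was read in no WT marrow library. Lrp6 was called lower in null with the offset for GC content and length (log2 fold change -0.42, adjusted p = 0.00265).

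**Figure D4:**
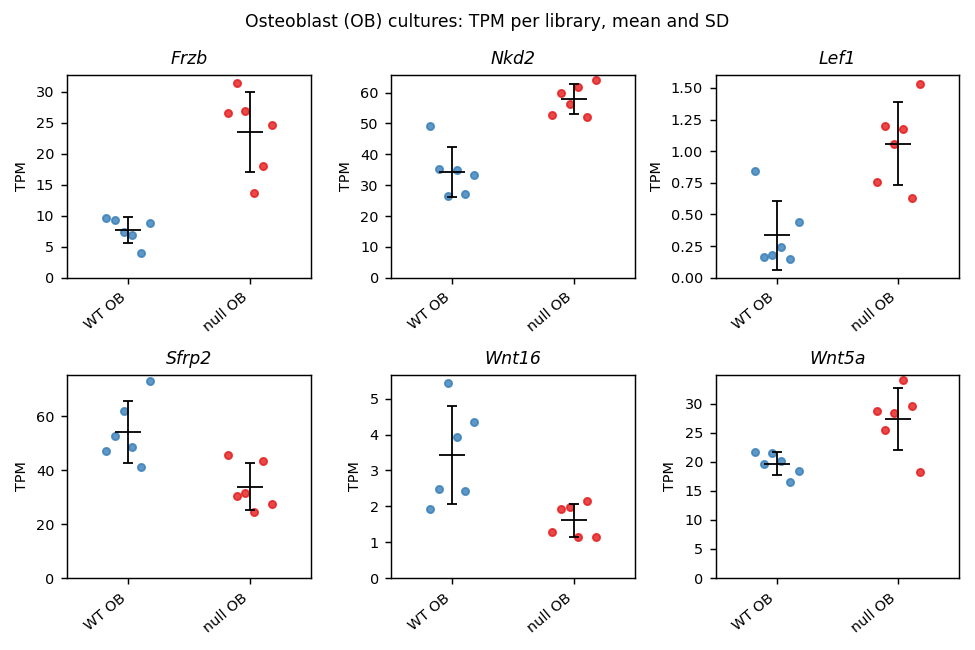
Level in TPM of 6 Wnt genes in each of the 6 WT (blue) and 6 null (red) osteoblast libraries, with the mean and SD in black. Frzb and Nkd2 are apart between genotypes in TPM, while Lef1, Sfrp2, Wnt16 and Wnt5a overlap.

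The remaining 16 genes had medians under 5 TPM in all groups and were called in no genotype comparison. They were the ligands Wnt4, Wnt5b, Wnt7b, Wnt10a, Wnt10b and Wnt11, the agonist Rspo3, the receptors Fzd6, Fzd8 and Fzd9, the inhibitors Dkk1, Wif1, Sost and Notum, the feedback gene Axin2 and the nuclear factor Tcf7. In osteoblasts their medians ran from 0 for Sost to 4.60 TPM for Wnt10a in WT, which was at 2.07, 4.60 and 6.95 TPM in WT OB and 1.46, 1.79 and 5.00 TPM in null OB (-0.97 ± 0.37, adjusted p = 0.0631, edgeR). Wnt10a was called lower in null by DESeq2 (adjusted p = 0.0193), under the length offset (0.0493) and without WT OB replicate 1 (0.0341) or null OB replicate 2 (0.00819). Wnt4 was the 1 ligand besides Wnt6 without a higher call in osteoblasts, with medians of 0.394, 0.398 and 0.271 TPM in WT BMM, WT OC and WT OB. Wnt11 overlaps Gm8398 and Wnt5b overlaps Fbxl14 on the other strand.

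Over the 3 genotype comparisons, 26 of the 43 Wnt genes tested in any were called at least once (60.5%), against 77.7% of 14016 genes. None of the 14 tested in all 3 was called in all 3, against 14.4% of 11501 genes. The difference between osteoblasts and the RANK-L cultures in the size of the genotype effect was tested over all 36 libraries. It was called for 17 of 43 genes, 8 higher and 9 lower in osteoblasts, where 55.2% of all genes were called, 27.8% higher and 27.4% lower. Against macrophages it was called for 14 of 43, 10 higher and 4 lower, where 45.9% of all genes were called, 21.6% higher and 24.3% lower. Several called genes passed the count filter through osteoblast libraries and had few marrow counts. Wnt16 had 21 and 0 counts over WT OC and null OC, Rspo2 1 and 22 and Fzd2 1 and 11. Rspo3 had 0 and 5 over WT BMM and null BMM. The counts of called genes are therefore a description. Wnt6 (-2.99 ± 0.41 and -2.27 ± 0.40, adjusted p = 1.21e-07 and 1.79e-05, edgeR) and Fzd1 (-3.78 ± 0.53 and -2.09 ± 0.44, adjusted p = 1.88e-07 and 0.000195) had lower genotype effects in osteoblasts than in either marrow culture. Lef1 had a higher one than in the RANK-L cultures (1.57 ± 0.59, adjusted p = 0.0245), and its difference from macrophages did not pass (adjusted p = 0.0826). It had 39 and 33 counts over the WT OC and null OC libraries and passed the count filter through osteoblast libraries. The Lef1 difference is therefore a description. Frzb had no counts in the marrow cultures, so its genotype effect in osteoblasts has no marrow value to be set against.

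**Figure D5:**
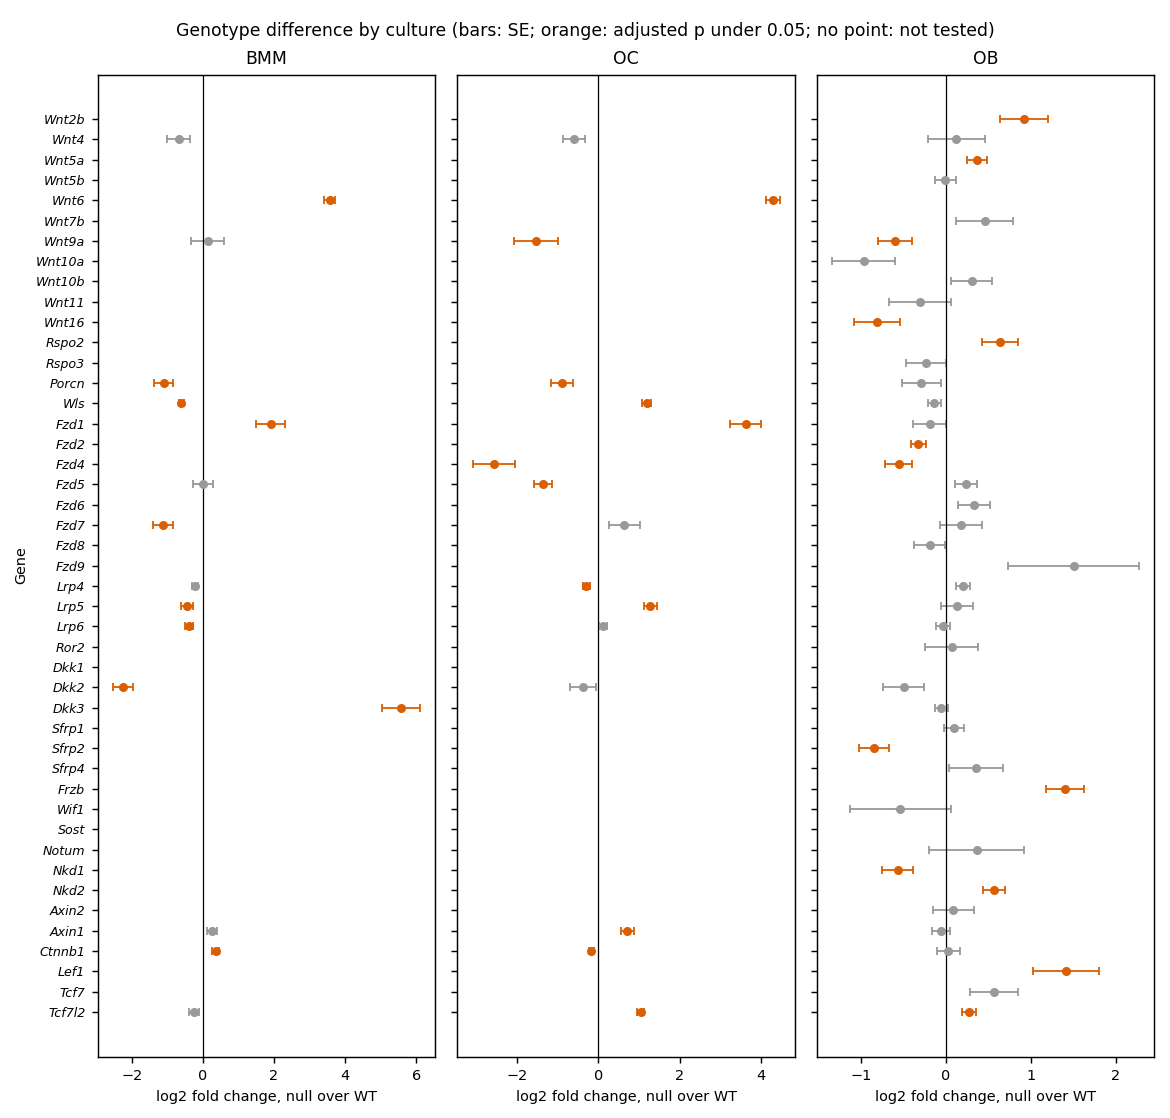
Log2 fold change of null over WT in macrophages (BMM), RANK-L cultures (OC) and osteoblasts (OB) for the 45 Wnt genes, with SE bars, orange where the adjusted p is under 0.05, grey where it is not, and no point where the counts were too low to test. The horizontal scales differ between panels: values run from -2.24 to 5.57 in BMM, -2.57 to 4.29 in OC and -0.966 to 1.504 in OB.

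A list of 71 other genes of the pathway, such as the destruction complex, Dishevelled proteins and widely used target genes, was tested in the same fits. In macrophages 13 of 36 tested were higher in null and 6 lower, where 27.0% of all genes were higher and 25.4% lower. In RANK-L cultures 16 of 37 were higher and 11 lower, where 32.4% of all genes were higher and 33.1% lower. In osteoblasts 18 of 52 were higher and 1 lower, where 15.5% of all genes were higher and 16.9% lower, in the comparison whose differences moved with transcript length (Spearman 0.549 across genes). The part of transcript length in that count is not given here. Their median log2 fold changes were 0.15, 0.16 and 0.18, against 0.02, -0.03 and 0.002 for all genes. In macrophages, Gja1, the gap junction protein connexin 43, was at 1.95, 2.21 and 2.69 TPM in WT and 15.3, 20.7 and 30.4 TPM in null (3.40 ± 0.13, adjusted p = 6.4e-12, edgeR), and Bambi, a decoy receptor, had 1.01 ± 0.09 (adjusted p = 1.92e-07). Myc, a transcription factor and Wnt target, was at 49.4, 63.7 and 69.1 TPM in WT BMM and 14.9, 17.4 and 29.1 TPM in null BMM (-1.59 ± 0.12, adjusted p = 3.12e-08), without overlap. Dvl2, which relays the signal from Frizzled, had -0.40 ± 0.08 (adjusted p = 0.000402), and its value is uncertain because the Mir324 hairpin lies within the annotated span of Dvl2.

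In the RANK-L cultures Ccnd1, which drives cell-cycle entry and is a Wnt target, was at 239, 265 and 303 TPM in WT and 425, 509 and 523 TPM in null (1.05 ± 0.07, adjusted p = 3.09e-10, edgeR), and Jun, a transcription factor, had 0.77 ± 0.05 (adjusted p = 1.74e-09). Myc was again lower (-1.01 ± 0.10, adjusted p = 1.24e-07). Csnk1a1, a kinase that marks β-catenin for destruction, was at 159, 179.7 and 201 TPM in WT OC and 87.5, 112 and 124 TPM in null OC (-0.54 ± 0.06, adjusted p = 6.03e-07). In osteoblasts the destruction complex genes Gsk3b and Apc were higher in null (0.42 ± 0.06 and 0.44 ± 0.07, adjusted p = 0.000112 and 0.000509), and Twist1, a transcription factor of mesenchymal cells, was the sole lower gene (-0.46 ± 0.16, adjusted p = 0.0429). Ccnd1, Myc, Gja1 and Bambi also have inputs from other pathways.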

How the data were processed

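The 36 libraries were measured by RNA-seq. Per the file headers, the authors deposited an estimated count, a TPM and a transcript length for each of 88198 transcripts, which is the output layout of kallisto. The submitters' processing notes name kallisto, DESeq2 and GRCh38, a human build, although the deposited transcript identifiers are mouse ones. The transcriptome version and strand setting are not given in the sources used here. Transcripts were joined to genes with GENCODE M21 (GRCm38), which matched 97.54% of them, 88.91% with the same length. Between 0.629% and 0.974% of counts per library had no gene and were left out. Estimated counts were summed over each gene's transcripts and rounded. TPM, summed likewise, gave levels.

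Comparisons used edgeR 4.0.16 in R 4.3.3 (limma 3.58.1): TMM scaling, the filterByExpr filter, a robust quasi-likelihood F test over all genes and Benjamini-Hochberg adjustment with a threshold of 0.05. Each genotype comparison used its own 12 libraries, the RANK-L comparisons the 24 marrow libraries and those with osteoblasts all 36. Simulated data had 200 changed genes, none with a low mean count, and a biological coefficient of variation of 18%. On them the test recovered 97% of genes changed 2-fold in the macrophage comparison, 98% in the RANK-L comparison and 96% in the osteoblast comparison. It recovered 88% in the interaction and 80% in the osteoblast minus RANK-L difference. These shares do not cover Wnt genes with few counts. No pair of replicates agreed within sampling noise (closest pair, chi-square 3.46 per gene). Alternatives were RLE scaling, other filters, DESeq2 1.42.0, a replicate block, offsets for transcript length and GC content (lowess span 0.3), other sets of libraries, and each library left out.

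The Wnt genes and all lists were chosen with earlier results of these data known. Values are given for Wnt genes called in a genotype comparison or with a median of at least 5 TPM in a group. Of the other pathway genes, the 2 higher and 2 lower with the smallest p and a mean of at least 1 CPM were named in each genotype comparison.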

Additional observations from a re-analysis of the deposited data

Results flagged for a closer look

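Over 111 groups of 6 libraries tested for a library far from the others, 2 had one, where chance gives about 1 in 20. Wls was at 96.26 TPM in WT OB replicate 2, against 110.9 to 118.1 TPM in the other five libraries. Axin1 was at 6.667 TPM in null OB replicate 4, against 2.747 to 3.528 TPM in the other five. In CPM, Axin1 ran only from 5.91 to 7.49 over the 6 null OB libraries.

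The genotypes differed in the RANK-L response of 11 Wnt genes (log2 interaction, edgeR, adjusted p under 0.05). The positive values were 0.73 for Wnt6, 1.80 for Wls, 1.73 for Fzd1, 1.76 for Fzd7, 1.73 for Lrp5, 0.515 for Lrp6, 1.87 for Dkk2 and 1.30 for Tcf7l2. The negative values were -1.35 for Fzd5, -2.42 for Dkk3 and -0.525 for Ctnnb1.

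The genotype effect differed between osteoblasts and RANK-L cultures for 17 genes, given as osteoblast minus RANK-L. Ligands and agonists had 1.48 (Wnt2b), -2.99 (Wnt6), 4.02 (Wnt16) and -3.14 (Rspo2), and Wls had -1.30. Receptors and co-receptors had -3.78 (Fzd1), -3.15 (Fzd2), 2.03 (Fzd4), 1.60 (Fzd5), 2.67 (Fzd6), 0.507 (Lrp4) and -1.14 (Lrp5). The other genes had -3.19 (Dkk3), 1.48 (Nkd1), -0.753 (Axin1), 1.57 (Lef1) and -0.759 (Tcf7l2).

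Between osteoblasts and macrophages it differed for 14 genes, given as osteoblast minus macrophage. Ligands and agonists had 3.55 (Wnt2b), -2.27 (Wnt6), 2.75 (Wnt16) and -3.225 (Rspo3). The secretion genes had 0.825 (Porcn) and 0.483 (Wls), and receptors and co-receptors -2.09 (Fzd1), 1.30 (Fzd7), 0.438 (Lrp4) and 0.365 (Lrp6). The rest had 1.77 (Dkk2), -5.61 (Dkk3), 1.92 (Nkd1) and 0.533 (Tcf7l2). Values for genes with few counts in a marrow group, such as Wnt2b, Wnt16, Rspo2, Rspo3, Fzd2, Fzd6, Dkk3, Nkd1 and Lef1, depend on the prior count and are no bound. Those among them that passed the count filter only through osteoblast libraries are a description.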

How the results depend on the processing

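Of the recomputed counts of called Wnt genes, 988 stayed within 1.5 times the reported value and 39 did not. In the fit over all 36 libraries the macrophage genotype comparison gave 16 calls (10 lower), the RANK-L cultures 10 higher, osteoblasts 7 (2 lower), the null RANK-L response 1 (lower) and the interaction 6 lower. With no filter on low counts the RANK-L genotype comparison gave 20 calls (10 higher, 10 lower), the WT RANK-L response 8 higher, and WT OB against WT OC 2 lower. DESeq2 gave 2 calls in the null RANK-L response (1 higher, 1 lower). With the offset for GC content and length, osteoblasts had 4 higher calls, and the osteoblast minus macrophage difference 6 higher and 8 lower. Under it the sign of that difference turned for Lrp4 (-0.057) and Lrp6 (-0.159). The cause of these shifts was not tested.

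No clear pairing by replicate number was seen: deviations of same-numbered libraries correlated between -0.265 and 0.166, and at most 3 of 6 pairs passed 0.1. Of the 6 WT BMM libraries, 3 correlated best with the WT OC library of their own number. At most 2 did so in any other comparison of groups. The labels do not give pairing, and these correlations cannot decide it. A replicate block gave 10, 11 and 11 calls in macrophages, RANK-L cultures and osteoblasts, 14 and 0 in the WT and null RANK-L responses, 11 in the interaction, 41 and 38 for WT OB over WT BMM and WT OC, and 18 and 13 for the osteoblast differences. Under the block Ctnnb1 in RANK-L cultures (adjusted p = 0.0601) and Wnt2b (0.0561), Wnt16 (0.0671) and Nkd1 (0.0641) in osteoblasts did not pass, and Wnt10a in osteoblasts did (0.0357). With the block and the length and GC offset, osteoblasts had 4 higher calls and the osteoblast minus macrophage difference 6, with Lrp4 at -0.064 and Lrp6 at -0.148. In that fit Lrp5 (adjusted p = 0.078, edgeR) and Lrp6 (0.0735) in macrophages and Lrp4 in RANK-L cultures (0.0524) did not pass. Nor did Wnt2b (0.129), Wnt5a (0.303), Wnt16 (0.203), Rspo2 (0.109) and Sfrp2 (0.0627) in osteoblasts. Lrp6 was called higher in null in RANK-L cultures (0.0188) and lower in null in osteoblasts (0.0055).

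Leaving out each library in turn gave 9 to 12 calls in macrophages (4 to 5 higher, 5 to 8 lower), 11 to 13 in RANK-L cultures (6 to 7, 5 to 6) and 9 to 13 in osteoblasts (4 to 8, 4 to 6). The WT RANK-L response gave 11 to 14 (4 to 5, 7 to 9), the null response 0 to 3 (0 to 2, 0 to 1) and the interaction 10 to 13 (8 to 9, 2 to 4). WT OB over WT BMM gave 41 to 42 (37 to 38, 3 to 4) and over WT OC 38 to 39 (37 to 37, 1 to 2). The osteoblast minus RANK-L difference gave 15 to 18 (6 to 9, 8 to 10) and osteoblast minus macrophage 10 to 18 (7 to 13, 3 to 5). The count of 39 genes highest in osteoblasts was the same by TPM and CPM. Genes with few counts in marrow cultures could be tested only in osteoblasts.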
